A study of Mus musculus with 12 samples.

Results

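The genes described here carry a symbol that begins with Kcn, the prefix given to potassium channel subunits and the proteins that assemble with them. They were chosen by symbol and annotation, as protein-coding genes on chromosomes 1 to 19, with Kcnj10 and Kcnq1ot1 left out. Earlier results of these data were known when the choice was made. The rule gave 93 gene entries with 91 symbols, since Kcnb2 and Kcnh8 are each listed as 2 entries, out of 37991 genes in the tables and 34964 on autosomes. Expression was measured by sequencing polyadenylated RNA from whole retinas of 8-week-old male mice, with no treatment and no transgene. The groups were the inbred parents, F0 C57BL/6J (the reference laboratory strain) and F0 Cast/EiJ (a wild-derived strain), and their reciprocal hybrids, F1 B6xCast (C57BL/6J father, Cast/EiJ mother) and F1 CastxB6 (Cast/EiJ father, C57BL/6J mother). Each group had 3 libraries and each library pooled 6 to 8 retinas, so the spread described below is the spread between pools. In the hybrids, reads that cover a base differing between the strains were assigned to the B6 or the Cast allele.

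Potassium channels set the resting potential of neurons and glia and end electrical signals by letting potassium leave the cell. Voltage-gated (Kv) channels are built from pore-forming subunits, which may be joined by silent subunits that form no channel alone and by auxiliary subunits that alter gating or trafficking. Inward rectifiers (Kir), tandem-pore leak channels (K2P) and channels opened by calcium or sodium make up the other classes. In photoreceptors, the silent subunit Kcnv2 is part of the channel of the inner segment that carries an outward current in darkness and shapes the response to light, and loss of human KCNV2 causes a cone dystrophy with supernormal rod responses.

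A potassium channel pore is recognised by the residues of its selectivity filter, in most families threonine, a hydrophobic residue, glycine, tyrosine or phenylalanine, and glycine. The coding sequences of the 93 members, taken from the longest GENCODE transcript on NCBIM37, were searched in frame on the coding strand for ACNNTNGGNTANGG or ACNNTNGGNTTNGG, the codon patterns of that filter, of which the second also admits leucine in place of phenylalanine. At least 1 of them was present in 66.7% of members, against 0.293% of the other autosomal protein-coding genes. The patterns were found in 10 of 10 silent Kv subunits, 13 of 14 Kir channels, 12 of 14 K2P channels, 22 of 31 Kv pore-forming subunits, 5 of 12 calcium- or sodium-activated channels and BK beta subunits, and 0 of 12 Kv auxiliary subunits. In 11 K2P genes they occurred at least 2 times, as each K2P subunit holds a pair of pore domains. The Kv pore-forming entries without them were Kcnh genes and the shorter Kcnb2 entry. The windows below show the filter of abundant pore-forming and silent members and of Kcnj11 and Kcng4, the called members with the lowest Cast/EiJ over C57BL/6J differences, with the codons for glycine, tyrosine or phenylalanine, and glycine in capitals.
Kcnv2: tccaccgtgGGCTATGGAgacatgtac
Kcng4: acgaccgtgGGCTATGGGgacatggtc
Kcnc1: acgacactgGGCTATGGAgacatgtat
Kcnma1: tctacagtgGGTTATGGGgacgtttat
Kcnh2: accagcgtgGGCTTTGGCaatgtctct
Kcnj14: acgtccataGGCTATGGTgtgcgcagc
Kcnj9: accaccatcGGCTATGGGcaccgggtc
Kcnj11: gtgaccattGGTTTCGGCgggcgcatg

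All 8 windows lie within a single coding exon and match the NCBIM37 genome. They are at chr19:27408141-27408167 on the plus strand (Kcnv2, exon 2 of 2), chr8:122149801-122149827 on the minus strand (Kcng4, exon 3 of 4) and chr7:53683340-53683366 on the plus strand (Kcnc1, exon 2 of 4). The others are at chr14:24347626-24347652 on the minus strand (Kcnma1, exon 7 of 30), chr5:23831364-23831390 on the minus strand (Kcnh2, exon 7 of 15), chr7:53074994-53075020 on the minus strand (Kcnj14, exon 2 of 3), chr1:174256306-174256332 on the minus strand (Kcnj9, exon 3 of 4) and chr7:53354857-53354883 on the minus strand (Kcnj11, exon 1 of 1). Kcnv2 and Kcng4 hold the full filter of a pore although neither forms a channel alone. Kcnh2 and Kcnj14 have a serine codon in place of the threonine codon and so fall outside the searched patterns.

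Depth was measured as unique hits, the read pairs that map to 1 gene (and, in hybrids, to 1 allele of it), and ranged from 8158534 to 11888819 in the F0 and from 8808577 to 12363291 in the F1 libraries. Markers of rods, the main cell type of mouse retina, summed to 16505 to 18398 FPKM in the F0 libraries. FPKM stands for fragments per kilobase of transcript per unit of sequencing depth and is the scale on which genes are compared here. Markers of other cells in the dissected tissue moved with strain. Summed cone, ganglion cell, retinal pigment epithelium and pericyte markers were lower in the 3 F0 Cast/EiJ libraries than in any F0 C57BL/6J library (317 to 376 against 431 to 506 FPKM, 207 to 226 against 281 to 309 FPKM, 6.48 to 7.66 against 12.4 to 14.2 FPKM, and 6.14 to 7.14 against 13.5 to 16 FPKM), and the rod, bipolar and amacrine sums were higher. Between the F1 alleles, which share the same cells, Rgs5, Sag and Cabp5 differed by log2 of -1.28, 0.92 and 1.46 (Cast over B6). Their strain differences were -1.62, 1.18 and 1.34. Opn1sw and Nr2e3 differed by -0.17 and -0.01 between the alleles and by -0.79 and 0.35 between the strains. In marker sums of such tissue, fewer cells of a type and less RNA per cell cannot be told apart. The part of cell composition in the strain differences below was not tested.

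Few potassium channel genes were abundant. Averaged over the 6 F0 libraries, 2 members exceeded 100 FPKM, 16 lay from 10 to under 100 FPKM, 30 from 1 to under 10 FPKM, 24 from 0.1 to under 1 FPKM and 21 below 0.1 FPKM. No unique hit was recorded for Kcnk16 or Kcnk18 in any library.

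Kcnj14, an inward rectifier, measured 159, 161 and 168 FPKM in F0 C57BL/6J and 213, 222 and 216 FPKM in F0 Cast/EiJ. The strains did not overlap, and every Cast/EiJ library was higher. Kcnab2, a beta subunit that binds the cytoplasmic face of Kv channels, measured 100, 122 and 116 FPKM in F0 C57BL/6J and 77.5, 74.3 and 87.9 FPKM in F0 Cast/EiJ. Kcnv2 measured 95.4, 101 and 109 FPKM in F0 C57BL/6J and 80.5, 77.9 and 85.4 FPKM in F0 Cast/EiJ. Both were lower in every Cast/EiJ library than in any C57BL/6J library. In the order of levels, Kcnj14 was separate from Kcnab2 and Kcnv2 from Kcnh2, whereas Kcnab2 overlapped Kcnv2.

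The next members formed a continuous series in which each overlapped its neighbour. Kcnh2, an ether-a-go-go-related subunit of rapidly activating delayed rectifiers, averaged 23.1 ± 3.89 FPKM in F0 C57BL/6J and 24.0 ± 1.37 FPKM in F0 Cast/EiJ (SD, n = 3 each). Kcnc1, a fast delayed rectifier subunit suited to rapid firing, averaged 21.9 ± 0.765 FPKM in F0 C57BL/6J and 24.2 ± 2.32 FPKM in F0 Cast/EiJ. Neither gene was called between the strains in the test described below. Kcnma1, the pore of the calcium-activated BK channel, averaged 18.6 ± 1.82 and 22.0 ± 0.682 FPKM in the respective strains, and Kcna5, a shaker-type delayed rectifier, 20.6 ± 1.73 and 15.2 ± 0.741 FPKM. Kcnd3, a transient A-type subunit, Kcnj9, a G protein-gated inward rectifier, and Kcne2, a single-pass auxiliary subunit, came next, with 12.3 to 19.2, 14.2 to 18.6 and 11.5 to 21.1 FPKM over the F0 libraries.

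**Figure D1:**
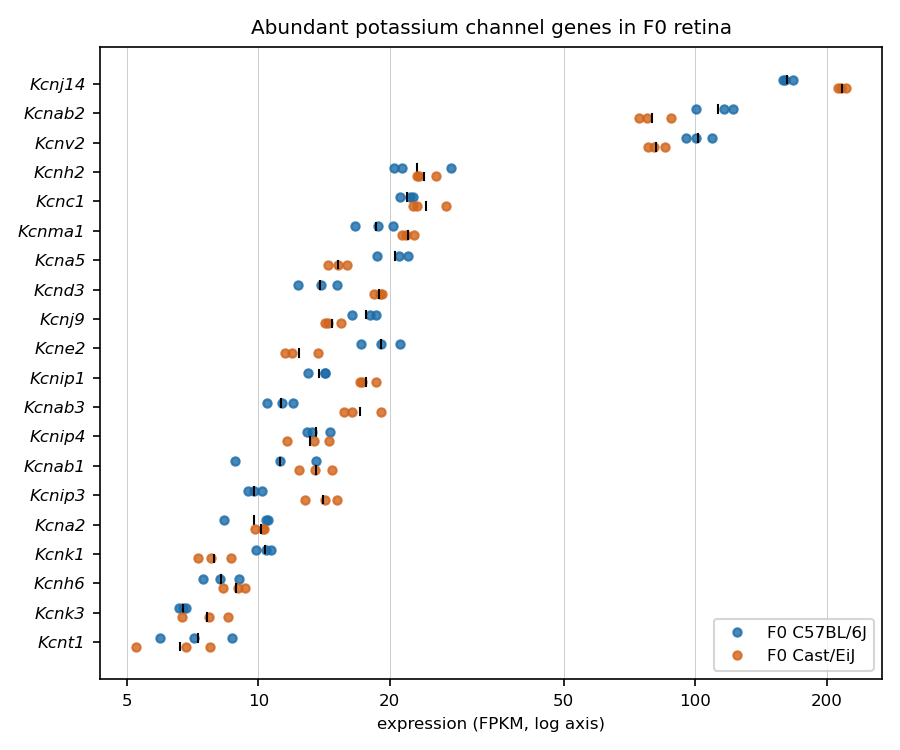
Expression of 20 abundant members, in order of mean F0 FPKM. Each point is an F0 library (3 C57BL/6J in blue, 3 Cast/EiJ in orange), ticks are group means, and the horizontal axis is FPKM on a log scale. Kcnj14, Kcnab2 and Kcnv2 stand apart from the other members plotted, and Kcnj14 is higher and Kcnab2 lower in every Cast/EiJ library.

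Members known chiefly from neighbouring tissues were scarce. Kcnj13, the inward rectifier of the retinal pigment epithelium, measured 0.475, 0.337 and 0.412 FPKM in F0 C57BL/6J and 0.488, 0.369 and 0.482 FPKM in F0 Cast/EiJ, on 3 to 5 unique hits a library, and lies within the span of Gigyf2 on the other strand. The retinal pigment epithelium marker sum was lower in Cast/EiJ by the values above, and of 8 tested markers of that list 2 (Rgr and Ttr) were called lower and 0 higher. The markers did not all go 1 way: of the others, Tyrp1 and Stra6 averaged more FPKM in Cast/EiJ (not called), and so did Mlana, which was not tested. Kcnj8, the pore of the vascular ATP-sensitive channel of pericytes and smooth muscle, measured 0.53, 0.771 and 0.561 FPKM in F0 C57BL/6J and 0.329, 0.588 and 0.476 FPKM in F0 Cast/EiJ. Its strain ranges overlapped. Of the 5 tested pericyte and smooth muscle markers 1 was called lower and 0 higher, and over all genes tested, as given below, 16.6% were called lower. Kcnq1, a cardiac and epithelial Kv subunit, had at most 3 unique hits in any F0 library.

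The F0 parents were compared to ask which channel genes differ between the strains, with limma on log2 of the authors' count equivalents plus 1, and a gene was called at an adjusted p under 0.05. Differences are given as log2 of Cast/EiJ over C57BL/6J with their SE. Of the 67 members that passed the filter on low values 25 were called, 10 higher and 15 lower in Cast/EiJ, against 33.8% of all 14452 genes tested. The median difference was -0.12 over the tested members and 0.03 over all genes tested. By class, 7 of 26 tested Kv pore-forming subunits, 2 of 7 silent subunits, 6 of 8 Kv auxiliary subunits, 5 of 10 Kir channels, 1 of 6 K2P channels and 4 of 10 calcium- or sodium-activated channels and BK beta subunits were called. In count equivalents, the 3 libraries of each strain did not overlap in 32 tested members, against 48.0% of all genes tested.

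**Figure D2:**
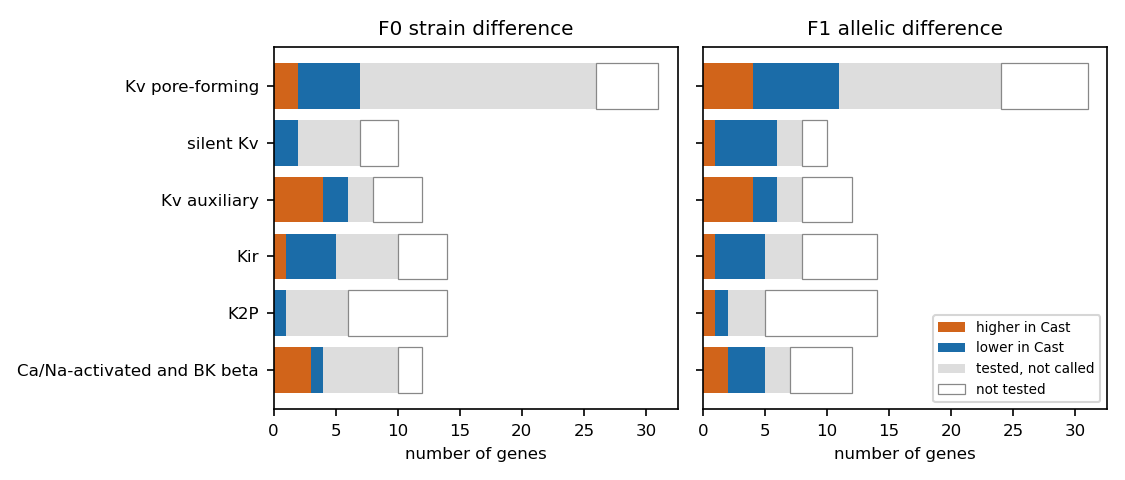
Calls by channel class between the F0 strains (left) and between the F1 alleles (right). Bars count genes, in orange those called higher and in blue those called lower for Cast, in grey those tested and not called, and in white those below the filter. The Kv auxiliary class has 4 higher and 2 lower members in both panels. Of the 7 tested silent members, 2 are called lower and 0 higher between the strains.

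Among the inward rectifiers the differences ran both ways. Kcnj14 had 7810, 7980 and 8260 count equivalents in F0 C57BL/6J and 10400, 11000 and 10800 in F0 Cast/EiJ, a difference of 0.42 ± 0.06 (limma adjusted p = 0.00112). Kcnj11, the pore of the ATP-sensitive channel of neurons and beta cells, had 110, 113 and 103 count equivalents in F0 C57BL/6J and 36.5, 37.4 and 52.2 in F0 Cast/EiJ, a difference of -1.37 ± 0.19 or 2.58-fold lower (limma adjusted p = 0.000639). No library of 1 strain overlapped the other for either gene. Of the 4 G protein-gated subunits, which open when inhibitory receptors release G protein subunits, Kcnj3, Kcnj5 and Kcnj9 were lower in Cast/EiJ and Kcnj6 was not called. Kcnj3 had 208, 234 and 259 against 102, 143 and 127 count equivalents (-0.92 ± 0.15, limma adjusted p = 0.00212). Kcnj5 had 184, 244 and 230 against 104, 162 and 147 (-0.68 ± 0.19, limma adjusted p = 0.0207), and Kcnj9 had 1010, 1120 and 1150 against 888, 884 and 964 (-0.26 ± 0.08, limma adjusted p = 0.032). The strains were separate in all 3 of these genes. Kcnj6 had 124, 159 and 167 against 134, 141 and 173 count equivalents, which overlapped (-0.00 ± 0.16, limma adjusted p = 0.99). The Kcnj3 difference was -0.43 on the FPKM scale (limma adjusted p = 0.0558), on which Kcnab1, Kcnc4, Kcna1, Kcnh7 and Kcnma1 were not called either (limma adjusted p = 0.197, 0.0694, 0.0525, 0.106 and 0.0799). The Kcnj5 call was lost without F0 C57BL/6J replicate 2 or 3 (limma adjusted p = 0.0795 and 0.0654), and the Kcnj9 call without F0 C57BL/6J replicate 2 or 3 or F0 Cast/EiJ replicate 1 or 2 (0.105, 0.105, 0.0765 and 0.0995). Kcnj2, a classical strong inward rectifier, had 161, 179 and 208 against 218, 182 and 166 count equivalents and was not called (0.05 ± 0.15, limma adjusted p = 0.84).

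Of the 7 tested silent subunits, 2 were called lower in Cast/EiJ and 0 higher, against 16.6% and 17.2% of all genes tested. Kcng4, a modifier of delayed rectifier channels, had 333, 332 and 297 count equivalents in F0 C57BL/6J and 184, 153 and 140 in F0 Cast/EiJ (-1.01 ± 0.13, 2.02-fold lower, limma adjusted p = 0.000412). Kcnv2 had 9280, 9910 and 10700 against 7850, 7690 and 8430 count equivalents (-0.32 ± 0.08, limma adjusted p = 0.0122). The strains did not overlap in either gene, and the larger difference was in the less abundant of them. The Kcnv2 call was lost without F0 Cast/EiJ replicate 2 (-0.29, limma adjusted p = 0.0519). Kcnf1, of the same class, was higher in Cast/EiJ by 0.55 ± 0.19 and was not called (limma adjusted p = 0.0537).

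The Kv auxiliary subunits had the largest share of calls. Kcnab2 had 4530, 4980 and 4630 count equivalents in F0 C57BL/6J and 3210, 2910 and 3200 in F0 Cast/EiJ (-0.60 ± 0.07, limma adjusted p = 0.000263), while its paralogues Kcnab3 and Kcnab1 went the other way. Kcnab3 had 558, 480 and 516 against 885, 688 and 759 (0.58 ± 0.11, limma adjusted p = 0.00357), and Kcnab1 had 541, 568 and 694 against 753, 910 and 826 (0.47 ± 0.11, limma adjusted p = 0.0125). The 3 beta subunit genes thus differed in direction, with no overlap of the strains in any of them. Kcnab2 shares its span with Nphp4 on the other strand, and reads from such a pair cannot be told apart by strand in libraries of this kind. Kcnip3, a calcium-binding partner of A-type channels, had 500, 492 and 480 against 741, 654 and 705 count equivalents (0.51 ± 0.08, limma adjusted p = 0.00139). Kcnip1, of the same family, had 482, 435 and 473 against 612, 571 and 550 (0.32 ± 0.08, limma adjusted p = 0.0191). Kcne2 had 525, 588 and 643 against 349, 367 and 421 (-0.63 ± 0.11, limma adjusted p = 0.00248). The strains were again separate in each. The Kcnab1 call was lost without F0 C57BL/6J replicate 2 or F0 Cast/EiJ replicate 2 (limma adjusted p = 0.0507 and 0.0544) and the Kcnip1 call without F0 C57BL/6J replicate 2 or F0 Cast/EiJ replicate 1 or 2 (0.0758, 0.0556 and 0.052).

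The A-type pore subunits Kcnd2 and Kcnd3 differed in opposite directions. Kcnd2 had 183, 190 and 225 count equivalents in F0 C57BL/6J and 101, 96.3 and 110 in F0 Cast/EiJ (-0.95 ± 0.13, 1.93-fold lower, limma adjusted p = 0.00074). Kcnd3, the more abundant of the pair, had 1230, 1440 and 1430 against 1840, 1820 and 1860 (0.43 ± 0.08, limma adjusted p = 0.00299). Neither gene showed overlap between strains. Among the other Kv pore-forming subunits, Kcna5 had 1050, 1190 and 1240 against 859, 826 and 912 (-0.42 ± 0.08, limma adjusted p = 0.00534), Kcnc2, a fast delayed rectifier, 697, 757 and 799 against 534, 535 and 566 (-0.46 ± 0.08, limma adjusted p = 0.00271), and Kcna1, an axonal low-threshold subunit, 784, 798 and 813 against 660, 640 and 635 (-0.31 ± 0.07, limma adjusted p = 0.00908). All 3 were lower in every Cast/EiJ library. Kcnc4, of the same family as Kcnc2, was higher, with 299, 316 and 299 against 365, 351 and 414 (0.30 ± 0.10, limma adjusted p = 0.0404), and its call was lost on leaving out any 1 of the 6 libraries (limma adjusted p from 0.0515 to 0.138). Kcna2 (0.07 ± 0.10), Kcnh1 (-0.12 ± 0.13), Kcnc1 (0.14 ± 0.09) and the entries of Kcnb2 (-0.05 ± 0.16 and -0.24 ± 0.26) were not called.

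Kcnk1, a weak inward rectifying leak channel, was the 1 K2P member called, with 419, 447 and 455 count equivalents in F0 C57BL/6J and 369, 313 and 336 in F0 Cast/EiJ (-0.38 ± 0.09, limma adjusted p = 0.0148). Its call was lost without F0 C57BL/6J replicate 2 or 3 or F0 Cast/EiJ replicate 2 (limma adjusted p = 0.0545, 0.0523 and 0.0554). Kcnk2, a mechanically gated leak channel, was not called (-0.22 ± 0.29, limma adjusted p = 0.593). Kcnma1 had 1240, 1440 and 1410 against 1600, 1650 and 1630 (0.26 ± 0.08, limma adjusted p = 0.0281), and its call was lost without F0 C57BL/6J replicate 1 or F0 Cast/EiJ replicate 2 or 3 (limma adjusted p = 0.0678, 0.0847 and 0.0749). Of the small-conductance calcium-activated subunits, Kcnn1 and Kcnn3 went in opposite directions and Kcnn2 was not called (0.27 ± 0.11, limma adjusted p = 0.0856). Kcnn1 had 177, 190 and 173 against 99.4, 134 and 138 (-0.55 ± 0.15, limma adjusted p = 0.022), and Kcnn3 had 6.99, 10.9 and 16.1 against 30.0, 30.1 and 31.9 (1.43 ± 0.32, limma adjusted p = 0.00939). The strains did not overlap in either gene, and the Kcnn1 call was lost without F0 C57BL/6J replicate 2 (limma adjusted p = 0.0779).

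Kcnmb3, a beta subunit of the BK channel (chr3:32371243-32390891, minus strand), was detected almost only in the F0 Cast/EiJ libraries. Its unique hits were 0, 1 and 0 in F0 C57BL/6J and 60, 93 and 54 in F0 Cast/EiJ. Per unique hit sequenced, the ratio of Cast/EiJ to C57BL/6J was 260, with an exact conditional 95% interval from 46.1 to 10318 that covers counting error only. Both alleles of all 6 F1 libraries had 0 unique hits, and their count equivalents were 0.0292 to 0.644. Kcnmb3 was the 1 of the 25 called members whose hybrid level, averaged over the alleles, lay outside the parental means. For the other 24 it lay between them, against 88.7% of all called genes. The fitted difference for Kcnmb3 (6.32 ± 0.41, limma adjusted p = 6.21e-06) depends on the added 1. The gene passed the filter on low values through the F0 Cast/EiJ libraries alone, so its p-value is not separate support. It is counted among the 10 members called higher. The cause of the gap between the hybrids and the Cast/EiJ parent was not tested.

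The alleles were compared within the F1 hybrids, where both are in the same cells, to ask which differences are carried by the allele itself. The comparison covered the 60 members for which the unique hits of both alleles averaged 10 or more over the F1 libraries, in a limma model with the library as a block. The Cast allele held 49.5% to 49.6% of all autosomal allele-specific hits in each F1 library. Of the 60 members 35 were called, 13 with a higher and 22 with a lower Cast allele, against 47.0% of all 13414 genes tested. The median difference was -0.09 over the members tested and 0.00 over all genes tested. The same allele was higher in 6 of 6 libraries for 26 members, against 42.0% of all genes tested. Called members made up 11 of 24 tested Kv pore-forming, 6 of 8 silent, 6 of 8 Kv auxiliary, 5 of 8 Kir, 2 of 5 K2P and 5 of 7 calcium- or sodium-activated and BK beta genes.

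Several genes with a lower Cast allele were also lower in the Cast/EiJ parent. For Kcnj11 the B6 allele had 82.9, 107 and 121 count equivalents (lowest, median and highest of 6 libraries) and the Cast allele 46.3, 49.1 and 69.8, a difference of -0.96 ± 0.11 (limma adjusted p = 1.51e-06). The Cast share of its unique hits was 27.4% to 37.8%. For Kcng4 the B6 allele had 226, 286.5 and 305 and the Cast allele 138, 155 and 178 (-0.86 ± 0.08, limma adjusted p = 2.87e-07), and for Kcnd2 160, 188.5 and 211 against 112, 120.5 and 139 (-0.60 ± 0.08, limma adjusted p = 2.00e-05). The allele ranges were separate in all 3. For Kcnj5 the alleles had 207, 254 and 274 against 145, 185.5 and 199 (-0.46 ± 0.10, limma adjusted p = 0.00142), with a Cast share of 41.0% to 42.9%. Kcnab2 had 4330, 4570 and 4700 against 3190, 3330 and 3450 (-0.45 ± 0.03, limma adjusted p = 1.2e-08) and a Cast share of 40.4% to 42.1%. Kcnv2 had 9720, 10175 and 10800 against 8150, 8795 and 9250 (-0.22 ± 0.04, limma adjusted p = 0.000155) and a Cast share of 45.1% to 45.9%. The Cast allele was lower in all 6 libraries for each of these 6 genes.

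Lower Cast alleles were also called for the silent subunits Kcng1, Kcng3 and Kcnf1, on few reads. Kcng1 (-0.84 ± 0.21, limma adjusted p = 0.00284), Kcng3 (-0.72 ± 0.23, limma adjusted p = 0.017) and Kcnf1 (-0.53 ± 0.14, limma adjusted p = 0.00561) rested on means of 12.5, 22.2 and 10.2 allele-specific hits per library. Their Cast shares ranged from 27.3% to an even split, from 26.7% to 45.0% and from 21.4% to 54.5%. The Kcng3 call was lost without F1 B6xCast replicate 1 or F1 CastxB6 replicate 1 or 2 (limma adjusted p = 0.0874, 0.0629 and 0.0636), and Kcnf1 was not called by edgeR on unique hits (adjusted p = 0.164). Kcnt1, a sodium-activated channel, had a fitted difference of -0.71 ± 0.19 (limma adjusted p = 0.00496) on Cast allele values of 126, 351.5 and 423 against 356, 493.5 and 588 for the B6 allele. The lowest Cast value was 1 library, F1 CastxB6 replicate 1, while the Cast share of unique hits was 43.0% to 46.2% in all 6. On the FPKM scale the Kcnt1 difference was -0.12 and was not called (limma adjusted p = 0.471).

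Higher Cast alleles were called across several classes. Kcnh6, an ether-a-go-go-related subunit, had 353, 396 and 447 count equivalents on the B6 allele and 515, 553 and 637 on the Cast allele (0.51 ± 0.07, limma adjusted p = 1.08e-05). Kcnab3 had 490, 514 and 630 against 693, 714.5 and 927 (0.48 ± 0.08, limma adjusted p = 7.05e-05), and Kcnip3 had 511, 536 and 553 against 651, 685.5 and 778 (0.39 ± 0.05, limma adjusted p = 2.73e-06). In these 3 genes the allele ranges did not overlap. Kcnj14 had 7440, 8125 and 8300 against 9760, 10075 and 10300 (0.33 ± 0.03, limma adjusted p = 1.34e-07), with a Cast share of 54.8% to 56.2%. Kcnma1 (0.32 ± 0.06, limma adjusted p = 0.000215), Kcnab1 (0.31 ± 0.07, limma adjusted p = 0.000951) and the acid-sensitive leak channel Kcnk3 (0.32 ± 0.08, limma adjusted p = 0.0023) followed, with the Cast allele higher in 6, 6 and 5 of 6 libraries. Kcns3, a silent subunit, had the largest fitted value (0.69 ± 0.25, limma adjusted p = 0.0309) on a mean of 12.7 hits. Its Cast share ran from 42.9% to 76.9%, the call was lost without F1 B6xCast replicate 1 or 2 or F1 CastxB6 replicate 1 or 2 (limma adjusted p = 0.187, 0.0813, 0.152 and 0.0701), and it was not called by edgeR on unique hits (adjusted p = 0.0601).

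**Figure D3:**
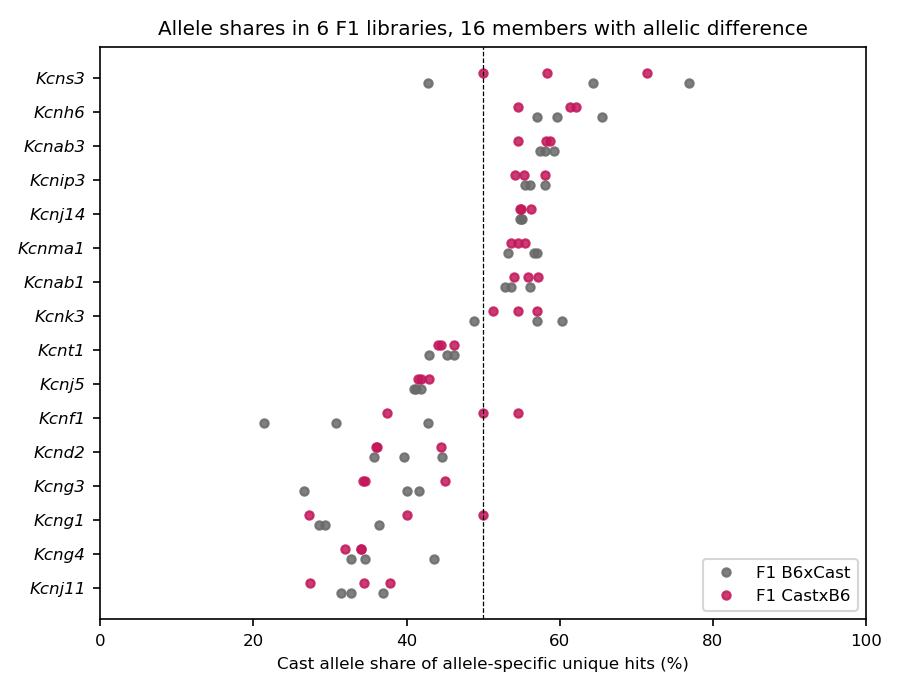
Cast allele share of allele-specific unique hits, in percent, for the 16 members with the largest called allelic differences (8 in each direction). Each point is an F1 library, grey for F1 B6xCast and pink for F1 CastxB6, and the dashed line marks 50%. Kcnj11 lies between 27.4% and 37.8% and Kcnj14 between 54.8% and 56.2% in both crosses, while Kcns3, Kcnk3 and Kcnf1 cross 50%.

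Of the 59 members tested in both comparisons, 18 were called between the strains and between the alleles in the same direction, 6 higher and 12 lower in Cast, against 22.2% of the 13055 genes tested in both. A further 2, Kcna1 and Kcnc4, were called in both with opposite signs, against 1.23% of all genes. The 6 that were higher were Kcnj14, Kcnab1, Kcnab3, Kcnip1, Kcnip3 and Kcnma1, and the 12 that were lower were Kcnj3, Kcnj5, Kcnj9, Kcnj11, Kcng4, Kcnv2, Kcnab2, Kcna5, Kcnc2, Kcnd2, Kcnk1 and Kcnn1. Some of these allelic calls were not stable. That of Kcnj3 (-0.37 ± 0.10, limma adjusted p = 0.00523) was -0.15 on the FPKM scale (limma adjusted p = 0.248). That of Kcnj9 (-0.12 ± 0.04, limma adjusted p = 0.0177) was not made by edgeR on unique hits (adjusted p = 0.0632) and was lost without F1 B6xCast replicate 1 or F1 CastxB6 replicate 1 or 3 (limma adjusted p = 0.052, 0.058 and 0.0634). That of Kcnc2 (-0.17 ± 0.05, limma adjusted p = 0.0128) was lost without F1 CastxB6 replicate 1 (limma adjusted p = 0.08). The remainder were 3 called between the strains only (Kcnd3, Kcne2 and the ether-a-go-go-related Kcnh7, the last with -0.33 ± 0.10 and a limma adjusted p of 0.0305), 15 between the alleles only and 21 in neither. The Kcnh7 call was lost without F0 C57BL/6J replicate 2 or 3 or F0 Cast/EiJ replicate 1 or 2 (limma adjusted p = 0.0554, 0.105, 0.0765 and 0.105). Over the 59 members the log2 differences had Pearson r = 0.57 and Spearman rho = 0.55, and over the 13055 genes 0.71 and 0.60. These describe genes within 1 set of libraries, and genes are not independent replicates. The F0 and F1 values came from different libraries.

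**Figure D4:**
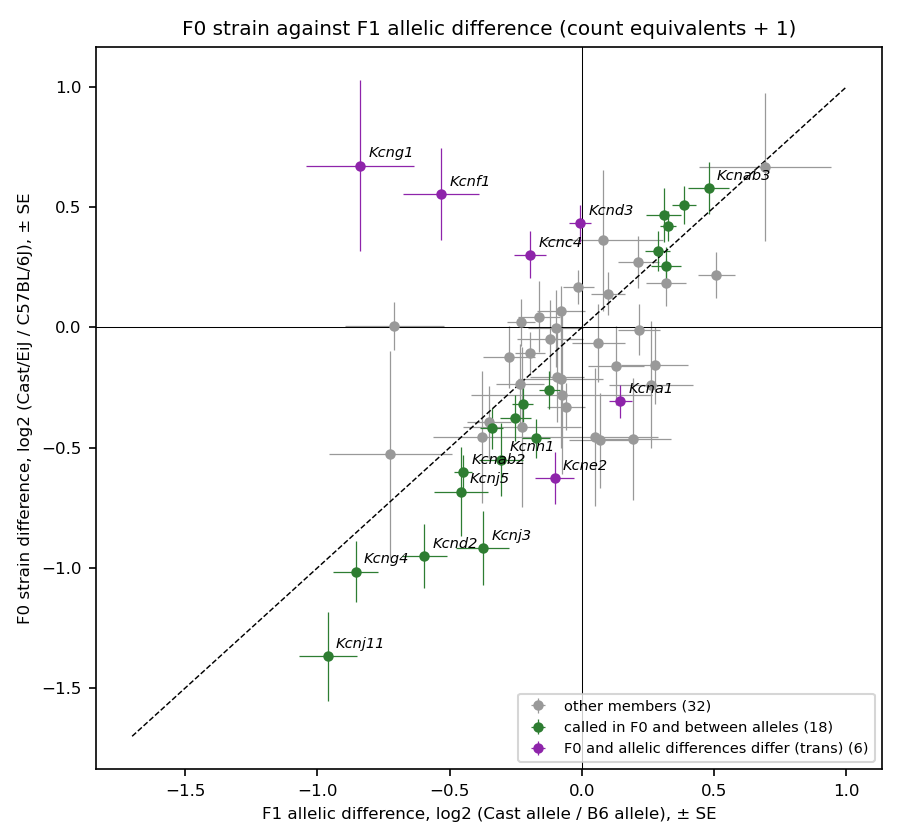
F0 strain difference against F1 allelic difference for 56 of the 59 members tested in both, each as log2 of Cast over B6 with bars of 1 SE. The dashed line marks equal differences. Green points are members called in both comparisons with the same sign (18), purple points those for which the differences themselves differed (6), and grey points the others. Kcnj11, Kcng4 and Kcnd2 lie at the lower left near the line, whereas Kcng1 and Kcnf1 lie at the upper left, away from it.

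The trans difference, the F0 strain difference minus the F1 allelic difference in 1 model, asks whether the strains differ by more or less than their alleles do when both are in the same nucleus. It was called for 7 of 60 members, 4 positive and 3 negative, against 14.0% of all 13414 genes tested, of which 5.64% were positive and 8.31% negative. The median was -0.10 over the members and -0.00 over all genes tested. By limma, 0 of the 18 members called in both comparisons with the same sign were among them, with Kcnj3 and Kcnc2 close to the threshold (limma adjusted p = 0.0566 and 0.0587), and edgeR on unique hits called Kcnc2 (adjusted p = 0.0379).

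Kcnd3 had the smallest adjusted p among them. Its strains differed as given above, and its allele ranges overlapped, with 1580, 1620 and 1660 count equivalents on the B6 allele and 1540, 1590 and 1750 on the Cast allele (lowest, median and highest of 6). The allelic difference was -0.01 ± 0.04, and the trans difference was 0.44 ± 0.08 (limma adjusted p = 0.000838). Both alleles lay above the 3 F0 C57BL/6J and below the 3 F0 Cast/EiJ values. Kcne2 was similar with the opposite sign, with 440, 482.5 and 560 on the B6 allele against 413, 469.5 and 510 on the Cast allele, an allelic difference of -0.10 ± 0.07 and a trans difference of -0.52 ± 0.13 (limma adjusted p = 0.0143). Without F0 C57BL/6J replicate 3 the Kcne2 value was -0.45 (limma adjusted p = 0.0515). In Kcna1 the signs were opposed, since the strain was lower and the allele higher, with 594, 642.5 and 724 on the B6 allele against 687, 724 and 768 on the Cast allele. Its allelic difference was 0.15 ± 0.04 (limma adjusted p = 0.0115) and its trans difference -0.45 ± 0.08 (limma adjusted p = 0.00103). The allelic call for Kcna1 was lost without F1 B6xCast replicate 1 or 3 (limma adjusted p = 0.0518 and 0.0534).

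Kcnc4 was opposed in the other sense, higher in the Cast/EiJ strain and lower on the Cast allele, with 339, 356.5 and 395 count equivalents on the B6 allele against 287, 317 and 352 on the Cast allele. Its allelic difference was -0.20 ± 0.06 (limma adjusted p = 0.0156) and its trans difference 0.50 ± 0.11 (limma adjusted p = 0.0069). The allelic call for Kcnc4 was lost without F1 B6xCast replicate 2 or 3 or F1 CastxB6 replicate 1 or 3 (limma adjusted p = 0.0953, 0.0528, 0.0573 and 0.0637), and the trans call was kept in every fit that left out a library. Kcnf1 and Kcng1 had the largest trans differences, 1.09 ± 0.26 (limma adjusted p = 0.00994) and 1.51 ± 0.37 (limma adjusted p = 0.0118), on the low hits given above. Kcnf1 had 58.9, 66.5 and 84.2 count equivalents in F0 C57BL/6J and 103, 85.8 and 120 in F0 Cast/EiJ, and Kcng1 had 8.84, 19.4 and 13 against 16.7, 29.1 and 20.4. Neither gene was called between the strains (limma adjusted p = 0.0537 and 0.177).

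**Figure D5:**
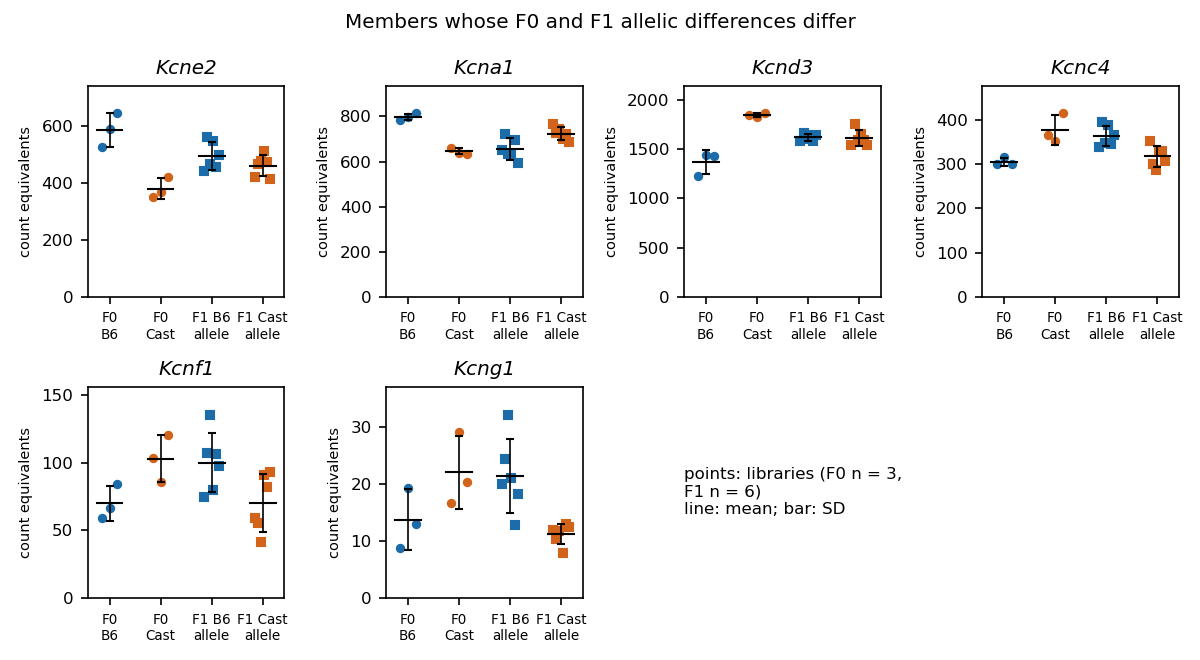
Count equivalents of 6 members with a called trans difference, in F0 C57BL/6J and F0 Cast/EiJ (3 libraries each) and on the B6 and Cast alleles of the hybrids (6 libraries each). Points are libraries, lines are means and bars are SD, and each vertical axis starts at 0. In Kcnd3 and Kcne2 the strains are apart and the alleles overlap, and in Kcna1, Kcnc4, Kcnf1 and Kcng1 the strain means and the allele means are ordered in opposite directions.

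The reciprocal crosses were compared to ask whether it matters which parent gave an allele. Maternal minus paternal allele was called for 0 of 60 members, against 0.492% of all 13414 genes tested, 0.179% with a higher and 0.313% with a lower maternal allele. At an unadjusted p under 0.05 there were 2 members by limma, Kcnk1 and Kcnf1 (limma adjusted p = 0.555 and 0.372), and edgeR on unique hits called 0. Total expression differed between F1 CastxB6 and F1 B6xCast for 0 of 71 tested members, against 0.0401% of all 14967 genes tested, with 4 at an unadjusted p under 0.05 (Kcna5, Kcnn1 and Kcnj11 among them, limma adjusted p = 0.917 each). EdgeR and DESeq2 on unique hits also called 0.

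The limit of 10 allele-specific hits left out members close to it, among them Kcnk10, Kcnrg and Kcnk9 with means of 9.67, 9.17 and 9 hits per F1 library, while Kcnf1 and Kcnk12 entered with 10.2 and 10.5. Kcnk9, an acid-sensitive leak channel known as maternally expressed in brain (chromosome 15), is shown here as unique hits only. In F1 B6xCast, whose mother was Cast/EiJ, the Cast allele had 11, 16 and 7 hits and the B6 allele had 0 in all 3 libraries. In F1 CastxB6, whose mother was C57BL/6J, the B6 allele had 7, 8 and 5 hits and the Cast allele had 0 in all 3. All 54 hits, pooled over the F1 libraries, were thus on the maternal allele. With 0 paternal of 54, the counting limit for paternal reads is 5.56%. This describes the reads, and no allelic call is drawn for a gene below the limit of 10 hits. The F0 parents overlapped, with 1.81, 3.35 and 3.05 FPKM in C57BL/6J and 2.09, 3.27 and 2.42 FPKM in Cast/EiJ.

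Genes whose products act with these channels were taken from a fixed list of 17, covering the pacemaker HCN channels, accessory subunits, sulfonylurea receptors and scaffolds. Of 15 tested, 3 were called higher and 0 lower in Cast/EiJ, against 17.2% and 16.6% of all genes tested. They were the pacemaker Hcn3 (0.57 ± 0.12, limma adjusted p = 0.00583), the BK accessory subunit Lrrc55 (0.98 ± 0.21, limma adjusted p = 0.00781) and the synaptic scaffold Dlg4 (0.36 ± 0.10, limma adjusted p = 0.0193). Between the alleles 5 of 15 were called higher and 2 lower, against 23.5% of all genes tested in each direction. Abcc8, the sulfonylurea receptor that assembles with Kcnj11, had a lower Cast allele (-0.31 ± 0.06, limma adjusted p = 0.000703) and a strain difference of -0.21 ± 0.12 that was not called (limma adjusted p = 0.211). Abcc9, the partner of Kcnj8, had a higher Cast allele (1.17 ± 0.13, limma adjusted p = 1.66e-06) and a strain difference of -0.44 ± 0.20 (limma adjusted p = 0.121), with a trans difference of -1.60 ± 0.24 (limma adjusted p = 0.000268). It lay with the pericyte markers on the lower side in the Cast/EiJ parents, and the part of cell composition in that was not tested.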

How the data were processed

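Whole retinas gave 12 polyA RNA libraries, sequenced as 101 bp paired reads (F0 on 1 lane, F1 on 2). According to the submitters' processing notes and the methods of the study, reads were trimmed with Trim Galore 0.2.6 and aligned with Bowtie 0.12.9 to strain-specific or hybrid transcriptomes built on mm9, and MMSEQ estimated gene and allele levels. The signal values deposited by the authors are normalized count equivalents, given to 3 digits, which are not whole. The natural log of expression was deposited by the authors in units like FPKM, and its exponential was used as FPKM. Unique hits are a count of read pairs deposited by the authors without normalization, and give the depth. The tables hold 54 further columns of per-sample values, which were not used; these hold standard deviations and the authors' own comparisons of alleles and strains (MMDIFF).

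Groups came from the labels, and each replicate was a separate pool of retinas. F0 strains and reciprocal crosses were compared with limma 3.58.1 (trend) on log2(count equivalents + 1) for autosomal genes that reached 10 count equivalents in 3 or more of the 6 libraries. The allelic, trans and parent-of-origin differences came from 1 limma model of 6 groups with the library as a block (duplicateCorrelation, consensus correlation 0.135), for genes whose allele-specific unique hits averaged 10 or more over the F1 libraries. A log2 difference on this scale understates the change of low genes. P-values were adjusted by Benjamini-Hochberg over all genes tested in each of 5 comparisons. The alternatives were edgeR 4.0.16 and DESeq2 1.42.0 on unique hits, TMM factors, a pseudocount of 0.1, other filters, FPKM + 0.1, a replicate block and leaving out each library. In simulated data with 200 genes changed 2-fold, limma called 69.5% (F0, 14452 genes), 84.5% (allelic), 69% (trans) and 87% (parent of origin, 13414 genes each) and 74% (crosses, 14967 genes). The simulated noise was independent between the alleles of a library, unlike the data, and smaller changes were not simulated. These rates therefore do not give the power for the smaller differences reported here. Limits for a count of 0 use 3 counts, intervals are at 95% and cover counting error only. Members, classes and lists were chosen with earlier results of these data known. Members were named by level (12 highest), by the 8 largest called differences in each direction, by called trans differences, by known interest, or behind a count of 5 or fewer. Coordinates and coding sequences are NCBIM37 (GENCODE vM1). Some members are not reported here by name and are left out of the plots of single genes, though counts include them. R 4.3.3 and Python 3.11.15 were used.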

Additional observations from a re-analysis of the deposited data

Results flagged for a closer look

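The F0 strain difference and the F1 allelic difference differed by the trans contrast of the limma model in the members listed here, with that contrast as a log2 value. It was negative in Kcne2 (-0.52) and Kcna1 (-0.45), where Cast/EiJ retinas were lower relative to the allele comparison. It was positive in Kcnd3 (0.44), Kcnc4 (0.50), Kcnf1 (1.09) and Kcng1 (1.51). EdgeR on unique hits called the trans difference for each of these as well, and for Kcnh6, Kcnc2 and Kcnh7 besides.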

How the results depend on the processing

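Of the called members, 11 of 25 between the strains, 20 of 35 between the alleles and 5 of 7 for the trans difference were called under every alternative in which they were tested and every fit that left out a library, and 0 changed direction in any of them. With no filter on low values 15 of 93 members were called between the strains, and over all genes 3161 of 34964 against 4887 of 14452. Both the number of tests and the fitted spread change in that fit. With genes of at least 1 allele-specific hit, 1 member was called for parent of origin, Kcnk9, which lies below the limit of 10 hits used for allelic statements. Over all genes, parent-of-origin calls were 66 and edgeR gave 39, and calls between the crosses were 6, with 24 under no filter, 12 by DESeq2 and 4 by edgeR, by the replicate block and at 50 or more count equivalents, and 5 to 12 on leaving out a library. On leaving out a library, called members ranged from 17 to 24 between the strains, from 27 to 35 between the alleles, from 6 to 8 for trans and from 0 to 0 for parent of origin and for crosses. Replicate numbers were not used to pair the samples in the main fits. Same-numbered F0 libraries deviated together with r of 0.33, 0.03 and 0.14, and differently numbered ones with r from -0.27 to 0.17. Same-numbered F1 libraries had r of -0.10, -0.12 and -0.06, and differently numbered ones from -0.00 to 0.12. With a replicate block, 27 members were called between the strains, 35 between the alleles, 7 for trans and 0 otherwise. Over all genes the block raised the calls between the strains from 4887 to 6376. Whether F0 replicates of the same number shared a batch was not tested. Depth limits the silent subunits Kcng1, Kcng3, Kcnf1 and Kcns3, whose allelic values rest on 12.5, 22.2, 10.2 and 12.7 hits per library.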
